A study of Mus musculus with 6 samples.

Results

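SRF and YAP responsive genes were followed in primary mouse hepatocytes, the metabolic cells of the liver, after depletion of RetSat (retinol saturase) by siRNA. The genes were Srf, Fhl1, Fhl2, Ankrd1, Tuft1, Thbs1, Ccn1 (Cyr61), Ccn2 (Ctgf), Amotl2 and Yap1, 10 of the 19938 genes compared. Each was taken from the probe sets, the groups of array probes that read 1 transcript, whose platform annotation names that gene symbol alone, and the brightest over all 6 arrays was kept. Each member had 1 such probe set, so the choice of the brightest changed no value. The list was drawn up with earlier results of these arrays known. Srf, Ankrd1, Thbs1 and Tuft1 are on it because they had fallen in this same comparison, so no p-value is printed for them. Where counts, figures or alternative settings mark them as past a threshold, this restates how they were chosen and is not support. The other 6 carry the p of the fit across all genes, and these are not support gathered apart from the list.

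Hepatocytes of a male wild-type C57BL/6J mouse aged 10 weeks were transfected overnight with siRNA against RetSat (siRetSat) or with control siRNA (siControl), 3 transfections each. Both groups received 1 nmol of siRNA per well by lipofection, were plated in medium with 25 mM glucose and 10% serum, and had no serum during the transfection itself. The next morning serum-containing medium was returned, and RNA was taken 48 h later. It was read on Affymetrix Mouse Gene 1.0 ST arrays, 1 for each transfection. The deposited values are normalized log2 intensities, so a difference of 1 is a doubling, and levels of different genes cannot be ranked because each probe set has its own brightness. All cells came from 1 mouse and only 1 siRNA preparation against RetSat was used here, so p-values measure the spread between transfections, and effects of the siRNA other than RetSat loss cannot be told apart from it.

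SRF (serum response factor) is a DNA-binding protein that switches on cytoskeletal and immediate early genes. One set of its partners, the MRTF coactivators, is held by monomeric actin and freed when actin is built into filaments. The other set, the ternary complex factors, answers to growth factor signalling. YAP (Yap1) and its relative TAZ are coactivators that bind TEAD factors, and the Hippo kinases keep them out of the nucleus. Both routes respond to serum, attachment and cell tension, and several genes, Ccn1, Ccn2 and Ankrd1 among them, are known to answer to both.

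The start regions of the members were searched for the DNA elements of SRF and TEAD, and 5 of them are shown because the members are grouped by these factors. In RefSeq's promoter table (GRCm38.p6), 7 of the 10 members matched, with 9 windows in all, of which the 250 bases before the transcript start were searched on both strands. The members named without a window are Thbs1, Tuft1 and Ccn2. Capitals mark a CArG box, the SRF element in which a CC and a GG flank a run of A and T bases, or a TEAD core, GGAATG or its reverse complement CATTCC. The windows are chr17:46556163-46556412 (minus strand) for Srf, chr1:43163962-43164211 (minus strand) for a downstream start site of Fhl2, chr19:36119845-36120094 (minus strand) for Ankrd1, chr3:145649986-145650235 (minus strand) for Ccn1 and chr9:102717554-102717803 (plus strand) for Amotl2.
Srf: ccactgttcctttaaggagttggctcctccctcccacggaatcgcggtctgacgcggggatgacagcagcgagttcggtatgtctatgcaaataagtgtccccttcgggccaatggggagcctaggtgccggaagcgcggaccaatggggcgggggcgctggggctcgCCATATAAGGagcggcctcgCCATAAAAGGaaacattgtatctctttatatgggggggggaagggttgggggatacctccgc
Fhl2: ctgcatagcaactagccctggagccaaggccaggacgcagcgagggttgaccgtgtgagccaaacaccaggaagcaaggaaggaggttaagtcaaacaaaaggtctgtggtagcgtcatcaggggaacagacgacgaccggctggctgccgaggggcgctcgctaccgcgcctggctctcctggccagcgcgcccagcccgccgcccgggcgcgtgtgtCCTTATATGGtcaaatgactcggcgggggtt
Ankrd1: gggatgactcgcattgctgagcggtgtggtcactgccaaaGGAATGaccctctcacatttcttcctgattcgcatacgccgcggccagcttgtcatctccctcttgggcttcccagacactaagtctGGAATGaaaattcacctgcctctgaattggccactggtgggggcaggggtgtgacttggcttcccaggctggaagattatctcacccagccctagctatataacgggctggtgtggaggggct
Ccn1: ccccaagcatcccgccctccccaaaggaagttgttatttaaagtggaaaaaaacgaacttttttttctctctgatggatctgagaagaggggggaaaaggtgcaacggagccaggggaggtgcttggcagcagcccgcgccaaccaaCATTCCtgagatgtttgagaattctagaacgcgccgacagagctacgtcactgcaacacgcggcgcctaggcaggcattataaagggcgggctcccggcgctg
Amotl2: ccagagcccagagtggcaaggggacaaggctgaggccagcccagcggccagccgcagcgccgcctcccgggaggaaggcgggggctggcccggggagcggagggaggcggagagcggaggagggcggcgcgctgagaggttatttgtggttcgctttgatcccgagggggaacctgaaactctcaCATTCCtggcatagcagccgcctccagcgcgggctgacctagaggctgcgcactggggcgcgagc

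Srf held 2 CArG boxes, whose first bases lay 82 and 62 bases before its start. Fhl2 held a CArG box at each of its start sites, 96 and 31 bases before them, and Fhl1 held one 102 bases before 1 of its start sites. TEAD cores lay 210 and 123 bases before the start of Ankrd1, 103 before that of Ccn1, 65 before that of Amotl2 and 141 before that of Yap1. No window of a member held both elements. A CArG box was found for 3 of the 7 members with a window (42.9%), against 1.45% of the 15614 genes tested that had one, and a TEAD core for 4 of 7 (57.1%), against 13.2%. Counted by window, 1.47% of all 32851 windows held a CArG box and 12.6% a TEAD core. The members were listed as genes that answer to SRF or YAP, so these shares describe them and are not support for that grouping. A match is a stretch of letters and not a measured binding site.

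**Figure D1:**
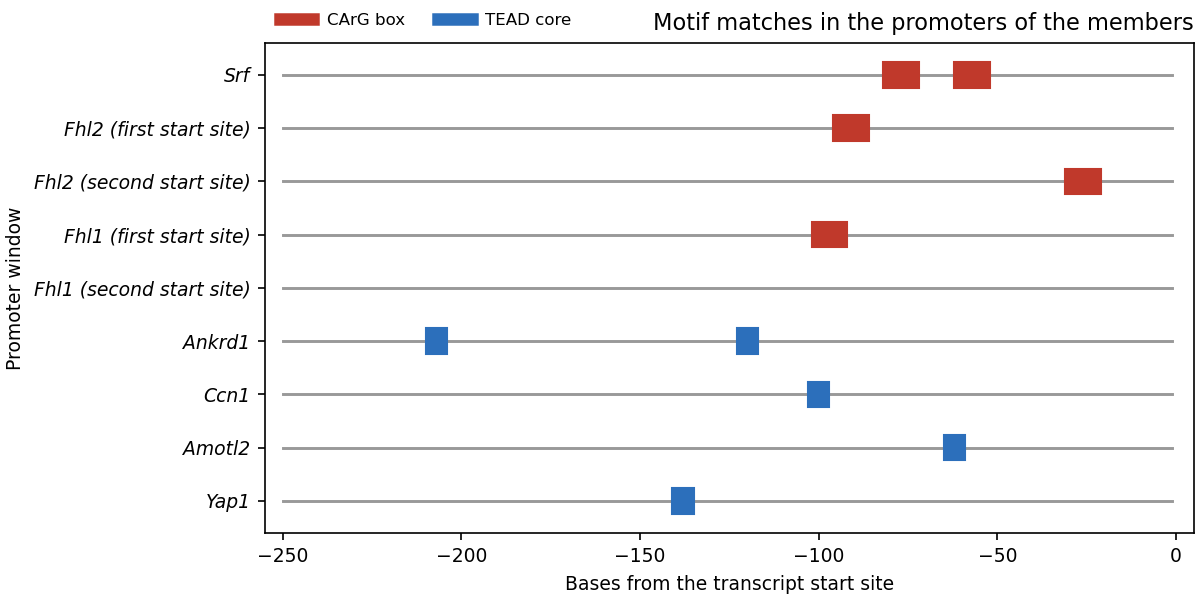
Matches to the CArG box (red) and the TEAD core (blue) in the 250 bases before the start sites of 7 members, drawn to scale with the start at 0 on the x axis (bases). CArG boxes lie 102 to 31 bases before the start of Srf, Fhl2 and Fhl1, and TEAD cores 210 to 65 bases before that of Ankrd1, Ccn1, Amotl2 and Yap1.

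All 10 members had a lower mean in siRetSat than in siControl, by very unequal amounts. Ankrd1 in siRetSat was at 49.5% of its siControl signal and Thbs1 at 52.2%, while Yap1 was at 98.2%. RNA came from whole wells, so fewer cells of a type and less RNA per cell cannot be told apart. For 8 members every siRetSat array lay below every siControl array, whereas 10.1% of all genes tested did so and 9.33% lay the other way round, and 4 of these 8 are the members chosen for their fall. At an adjusted p under 0.05 from limma 4 members were lower and none higher, against a background of 1.66% of genes lower and 3.56% in either direction. Those 4 are the members chosen for it, and nothing is read from their count. Of the other 6 members none passed in this fit, though Ccn2 and Fhl2 did with a block on replicate number. Of these 6, 4 had groups that did not overlap, and their median log2 fold change was -0.27, beside 0.003 over all genes.

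**Figure D2:**
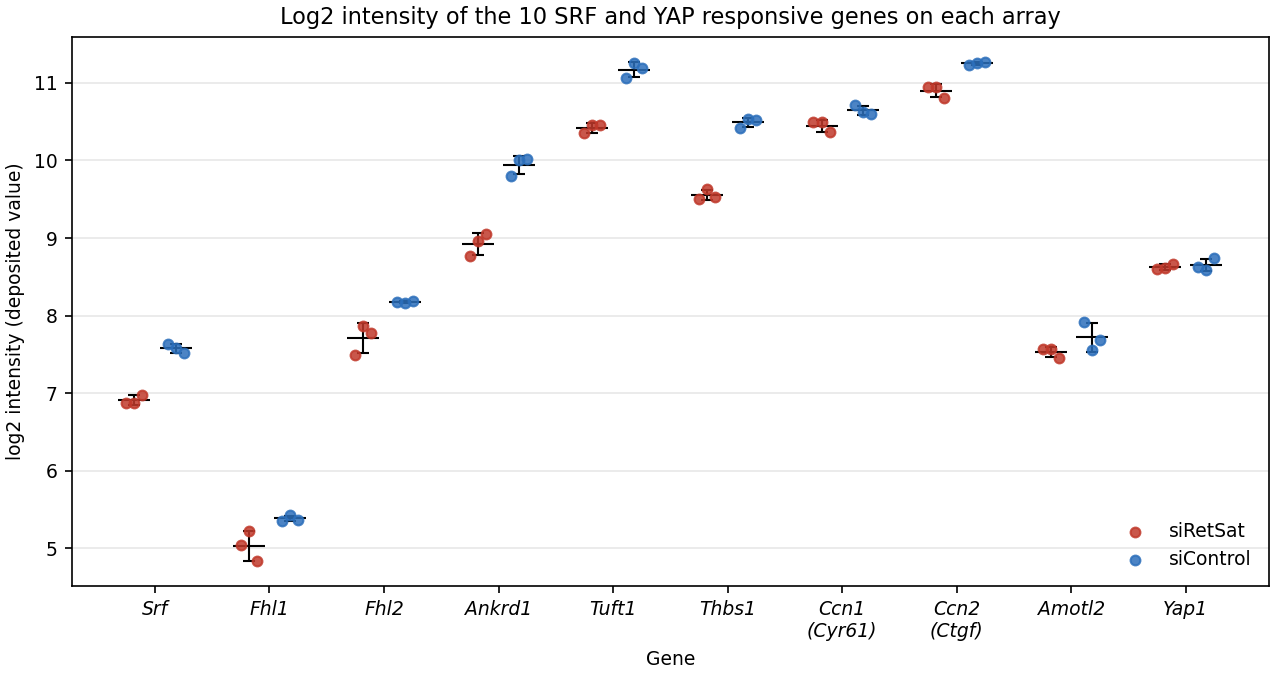
Each point is the deposited log2 intensity of a gene on 1 array, with the siRetSat arrays (red) left of the siControl arrays (blue). Horizontal bars are group means and vertical bars 1 SD to each side (n = 3 transfections). The groups are apart for 8 genes and overlap for Amotl2 and Yap1.

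Srf, the transcription factor itself, had log2 values of 6.87, 6.88 and 6.98 in siRetSat, against 7.64, 7.58 and 7.52 in siControl. The highest siRetSat array stood 0.54 below the lowest siControl array. Its mean was 6.91 ± 0.06 in siRetSat and 7.58 ± 0.06 in siControl (SD, n = 3 each). The log2 fold change of Srf was -0.67 with a standard error of 0.0852. This left 62.9% of the siControl signal (95% interval 54.9 to 72.0%). Srf is known to be a target of its own protein, and its window carries the pair of CArG boxes shown above.

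Fhl2 and Fhl1 encode LIM-domain proteins that shuttle between adhesions and the nucleus, and Fhl2 is a known SRF target that also competes with MRTF for SRF. Fhl2 had log2 values of 7.49, 7.86 and 7.77 in siRetSat, against 8.17, 8.16 and 8.19 in siControl. The siControl arrays were nearly level (SD 0.0153), while the siRetSat arrays spread over more (SD 0.193), with siRetSat 1 lowest. The log2 fold change of Fhl2 was -0.47 (standard error 0.11, 95% interval -0.72 to -0.21), at an adjusted p of 0.0649 from limma. Fhl2 passed in 5 alternative settings, for example with dim genes left out (adjusted p = 0.0398), and missed in the others, whose largest adjusted p was 0.444. Fhl1 had log2 values of 5.04, 5.22 and 4.84 in siRetSat, against 5.36, 5.43 and 5.37 in siControl. Its groups stood 0.14 apart, and its log2 fold change of -0.35 (95% interval -0.61 to -0.10) had an adjusted p of 0.161 from limma. Set against each other within arrays, Fhl2 and Fhl1 did not change by different amounts beyond the spread, with a difference of -0.11 in the log2 gap between them (two-sided exact permutation test, p = 0.6, where 3 against 3 can give no less than 0.1).

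Ankrd1, a nuclear ankyrin-repeat protein of stretched muscle and a widely used reporter of YAP activity, had the most negative log2 fold change of the members. Its log2 values were 8.77, 8.96 and 9.05 in siRetSat, against 9.80, 10.00 and 10.02 in siControl. The lowest siControl array stood 0.75 above the highest siRetSat array. The mean was 8.93 ± 0.14 in siRetSat and 9.94 ± 0.12 in siControl (SD, n = 3 each). The log2 fold change of Ankrd1 was -1.01 with a standard error of 0.109 (95% interval -1.26 to -0.76). Among all genes this was the 46th largest fall. Ankrd1 is the member with 2 TEAD cores in its window.

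Thbs1 encodes thrombospondin 1, a secreted matrix glycoprotein. Its log2 values were 9.50, 9.63 and 9.53 in siRetSat, against 10.42, 10.53 and 10.52 in siControl. No other member had its groups as far apart, with a gap of 0.79. The mean was 9.55 ± 0.07 in siRetSat and 10.49 ± 0.06 in siControl (SD, n = 3 each), and the log2 fold change was -0.94 (standard error 0.0862, 95% interval -1.13 to -0.74). Tuft1 encodes tuftelin 1, first described in tooth enamel. Its log2 values were 10.35, 10.45 and 10.46 in siRetSat, against 11.06, 11.26 and 11.19 in siControl. The siRetSat arrays were again all lower, by at least 0.60. The log2 fold change of Tuft1 was -0.75 (standard error 0.0914, 95% interval -0.96 to -0.54), which left 59.5% of the siControl signal.

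Ccn2 (connective tissue growth factor) and Ccn1 are secreted matricellular proteins of the CCN family and standard YAP targets. They differed less between the groups than Ankrd1 did. Ccn2 had log2 values of 10.95, 10.95 and 10.80 in siRetSat, against 11.23, 11.25 and 11.27 in siControl. Every siRetSat array was below every siControl array, by at least 0.28, and the log2 fold change was -0.35 (standard error 0.0858, 95% interval -0.55 to -0.15) at an adjusted p of 0.0735 from limma. Ccn2 passed in 4 alternative settings, as with dim genes left out (adjusted p = 0.0376), and the largest adjusted p in the others was 0.631. Ccn1 had log2 values of 10.49, 10.49 and 10.36 in siRetSat, against 10.71, 10.62 and 10.60 in siControl. The groups did not overlap but stood only 0.11 apart. Its log2 fold change of -0.20 (95% interval -0.40 to 0.00) had an adjusted p of 0.354 from limma, and it passed in no alternative. Within arrays the log2 gap of Ccn2 over Ccn1 was 0.45 ± 0.01 in siRetSat and 0.61 ± 0.08 in siControl (SD, n = 3 each), with no overlap (exact permutation p = 0.1, two-sided, which is the floor for 3 against 3). The log2 gap of Ankrd1 to Ccn2 was -1.97 ± 0.22 in siRetSat and -1.31 ± 0.10 in siControl (SD, n = 3 each), described without a test because Ankrd1 was chosen for its fall.

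Amotl2, an angiomotin family member that binds and restrains YAP and is itself a YAP target, had log2 values of 7.57, 7.57 and 7.46 in siRetSat, against 7.92, 7.56 and 7.68 in siControl. The groups overlapped, since siControl 2 lay within the siRetSat values. Its log2 fold change was -0.19 (95% interval -0.44 to 0.07), at an adjusted p of 0.544 from limma. Yap1, the coactivator, had log2 values of 8.60, 8.61 and 8.67 in siRetSat, against 8.63, 8.59 and 8.74 in siControl. These also overlapped, and the log2 fold change of -0.03 (95% interval -0.22 to 0.17, adjusted p = 0.961 from limma) has a lower bound that stands for 85.7% of the siControl signal. The arrays do not measure where in the cell YAP protein lies or how active it is. Within arrays the log2 gap of Srf to Yap1 was -1.72 ± 0.02 in siRetSat and -1.07 ± 0.13 in siControl (SD, n = 3 each), again a description because Srf was chosen for its fall.

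**Figure D3:**
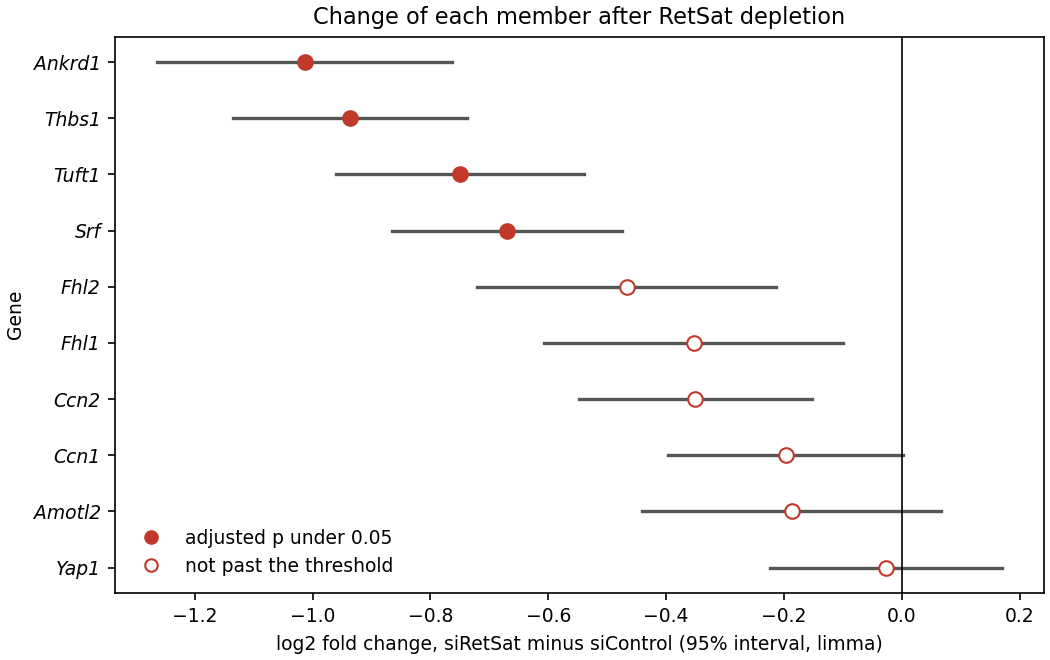
Log2 fold change of each member on the x axis, siRetSat minus siControl, with the 95% interval from limma as a line (3 arrays per group). Filled points passed an adjusted p of 0.05 across all genes, and these are the members chosen for their fall. The order runs down the page from Ankrd1 at -1.01 to Yap1 at -0.03.

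Ordered by log2 fold change, the members were Ankrd1, Thbs1, Tuft1, Srf, Fhl2, Fhl1, Ccn2, Ccn1, Amotl2 and Yap1. The 95% intervals of neighbours in this order overlapped throughout, and differences between neighbours were not tested. The interval of Ankrd1 (-1.26 to -0.76) lay wholly below those of Fhl2 and of every member after it. Because Ankrd1 was chosen for its fall, this describes the values and is not a test. The study used looser limits, an unadjusted P under 0.05 with a log2 fold change of at least 0.32 in either direction. By these limits 7 members were lower and none higher with the limma p, beside 4.58% of all genes lower and 4.47% higher. The methods' t-test also gave 7, beside 7.15% of all genes in either direction. These 7 were the 4 chosen ones with Fhl2, Fhl1 and Ccn2. A gene was called dim if its mean level was under the 40th percentile of all genes (4.33), and none of the 10 members was. The log2 fold changes of Srf, Ankrd1, Thbs1 and Tuft1 were between -1.0 and -0.66 without both arrays numbered 2, when no member and only 15 genes in all were called. Without both arrays numbered 3, Srf and Tuft1 were not called.

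Of the other known targets of actin, MRTF and SRF, those that passed the test were all lower in siRetSat. Of 30 listed genes 29 were measured, of which 8 were lower and none higher at an adjusted p under 0.05 from limma (beside 1.66% of all genes lower). The list median was -0.29. The 8 were the smooth muscle and skeletal actins Acta2 (-2.40) and Acta1 (-1.78), calponin Cnn1 (-1.87), transgelin Tagln (-1.46), the fibronectin receptor chain Itga5 (-1.31), the actin-binding nexilin Nexn (-1.12), the myosin light chain Myl9 (-0.98) and the LIM protein Csrp1 (-0.67). Acta1 and Acta2 are near-identical actin genes whose probes may read each other's transcripts. Acta2, Acta1, Cnn1, Tagln and Myl9 had been seen to fall before this list was written, and the 24 others had 3 lower, none higher and a median of -0.19. Itga5 had log2 values of 6.00, 6.49 and 6.63 in siRetSat, against 7.38, 7.87 and 7.80 in siControl, and the groups stood 0.75 apart. Without siControl 2 its adjusted p was 0.0643. Csrp1 and Nexn each passed in 2 of the 6 fits that left out a single array, those without an array numbered 1, and their adjusted p in the other 4 ran from 0.0522 to 0.131.

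Several of these targets also mark smooth muscle and activated stellate cells, so markers of those cells were read beside them. None of 7 smooth muscle markers passed, beside 3.56% of all genes in either direction. This marker list leaves out Acta2, Cnn1, Tagln and Myl9, which are counted with the targets above. The summed linear intensity of the 7 was 161 to 196 in siRetSat and 188 to 202 in siControl. Myh11, the myosin of smooth muscle, differed by -0.53 in log2 level (adjusted p = 0.135 by limma), and was named after its value was seen. The brightest, Smtn, differed by -0.11, 4 of the 7 had a positive difference, the list median was 0.01, and 3 were dim. None of 12 stellate cell and fibroblast markers passed, with sums of 279 to 491 in siRetSat and 263 to 344 in siControl, and 6 of them, Des, Pdgfrb and Lrat included, were dim. The brightest, Col1a1, was high on siRetSat 2, at 7.51, against 6.11 and 5.71 on the other siRetSat arrays and a siControl mean of 5.74. The part of these cells in the falls was not tested.

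Many of the other MRTF-SRF targets on the list did not pass. The log2 fold change was -0.44 for Tpm1 (tropomyosin, adjusted p = 0.0604 from limma), -0.36 for Pdlim7 (adjusted p = 0.0912), -0.31 for Lima1 (adjusted p = 0.128) and -0.38 for Tpm2 (adjusted p = 0.15). Of the 29 measured genes 26 had a negative fold change, beside 48.3% of all genes. These 26 include Acta2, Acta1, Cnn1, Tagln and Myl9, seen to fall before the list was written. Of the 24 others 21 had a negative fold change. The 3 with a positive one were Zyx (0.05), Vcl (0.01) and Cnn2 (0.003), named after their values were seen. The ternary complex factor targets of SRF, the immediate early genes, gave 0 of 12 at an adjusted p under 0.05 from limma, beside 3.56% of all genes. An unadjusted p under 0.05 was found for 3 of the 12, Nr4a1 at -0.28, Fosb at -0.33 and Ier3 at -0.30, beside 14.5% of all genes, and the groups of Fosb and Ier3 overlapped. Their median was -0.06, and the next by p was Fos at -0.22 (adjusted p = 0.413).

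Other YAP/TAZ and TEAD targets did not move to one side. Of 25 genes, all measured, 1 was lower and 1 higher at an adjusted p under 0.05 from limma, beside 1.66% of all genes lower and 1.91% higher, and the list median was 0.04. The lower gene was Fjx1, the relative of the Drosophila Golgi kinase Four-jointed, with log2 values of 5.82, 6.18 and 5.91 in siRetSat, against 6.66, 6.77 and 6.64 in siControl, and a difference of -0.72 (adjusted p = 0.0142 by limma). It missed without siControl 2 (adjusted p = 0.0892) and without siRetSat 3 (adjusted p = 0.0573). The higher gene was Lats2, a Hippo kinase that phosphorylates YAP and is also a YAP target, with log2 values of 6.97, 7.24 and 7.34 in siRetSat, against 6.52, 6.45 and 6.53 in siControl. All siRetSat arrays were above all siControl arrays, by 0.68 in the mean (adjusted p = 0.0168 by limma). Lats2 missed without an array numbered 2 or 3 of either group, at an adjusted p of 0.0592 to 0.0983. Of the genes that did not pass, those with the smallest p were Dock5 at -0.37, Wtip at 0.42, F3 at -0.55 and Gadd45a at 0.24. Of the 25 genes 6 were dim, while none of the 29 measured other MRTF-SRF targets was, and the 2 target lists were not tested against each other.

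The messages of the regulators above SRF and YAP mostly did not pass. Of 18 measured SRF cofactors and regulators of actin, 1 was lower and 1 higher at an adjusted p under 0.05 from limma, beside 1.66% of all genes lower and 1.91% higher. Rhob, a small GTPase of endosomes, was lower, with log2 values of 9.0, 9.23 and 9.21 in siRetSat, against 9.66, 9.91 and 9.98 in siControl, a log2 fold change of -0.70 (adjusted p = 0.0171). Elk3, a ternary complex factor that can repress SRF targets, was higher, with log2 values of 6.36, 6.50 and 6.48 in siRetSat, against 5.95, 5.72 and 5.81 in siControl, a log2 fold change of 0.62 (adjusted p = 0.0138). Rhob missed without siControl 2 or 3 or siRetSat 2 (adjusted p 0.0669 to 0.1) and Elk3 without an array numbered 2 or 3 of either group (adjusted p 0.0573 to 0.0845). The log2 fold changes of the MRTF genes themselves were -0.13 for Mrtfa and -0.08 for Mrtfb, and the median of the list was -0.08. Elk1 at -0.24, Diaph1 at -0.33, Rhoa at -0.20 and Diaph3 at 0.23 had the smallest p among those that did not pass (adjusted p 0.312 to 0.442).

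Of 22 measured genes of the Hippo cascade with its TEAD factors, Lats2 was higher and Wwc1 (KIBRA), an upstream activator of the cascade, lower, at an adjusted p under 0.05 from limma, beside 3.56% of all genes in either direction. Wwc1 had log2 values of 6.95, 6.92 and 6.94 in siRetSat, against 7.37, 7.52 and 7.38 in siControl. The groups stood 0.42 apart and the log2 fold change was -0.49 (adjusted p = 0.0213), which was missed without an array numbered 2 or 3 of either group (adjusted p 0.0721 to 0.117). Amot at -0.43, Taok3 at 0.31, Nf2 at -0.42 and Vgll4 at -0.29 did not pass (adjusted p 0.0674 to 0.178). TAZ (Wwtr1) had a log2 fold change of 0.08 and Tead1 one of 0.06, and the list median was -0.05.

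**Figure D4:**
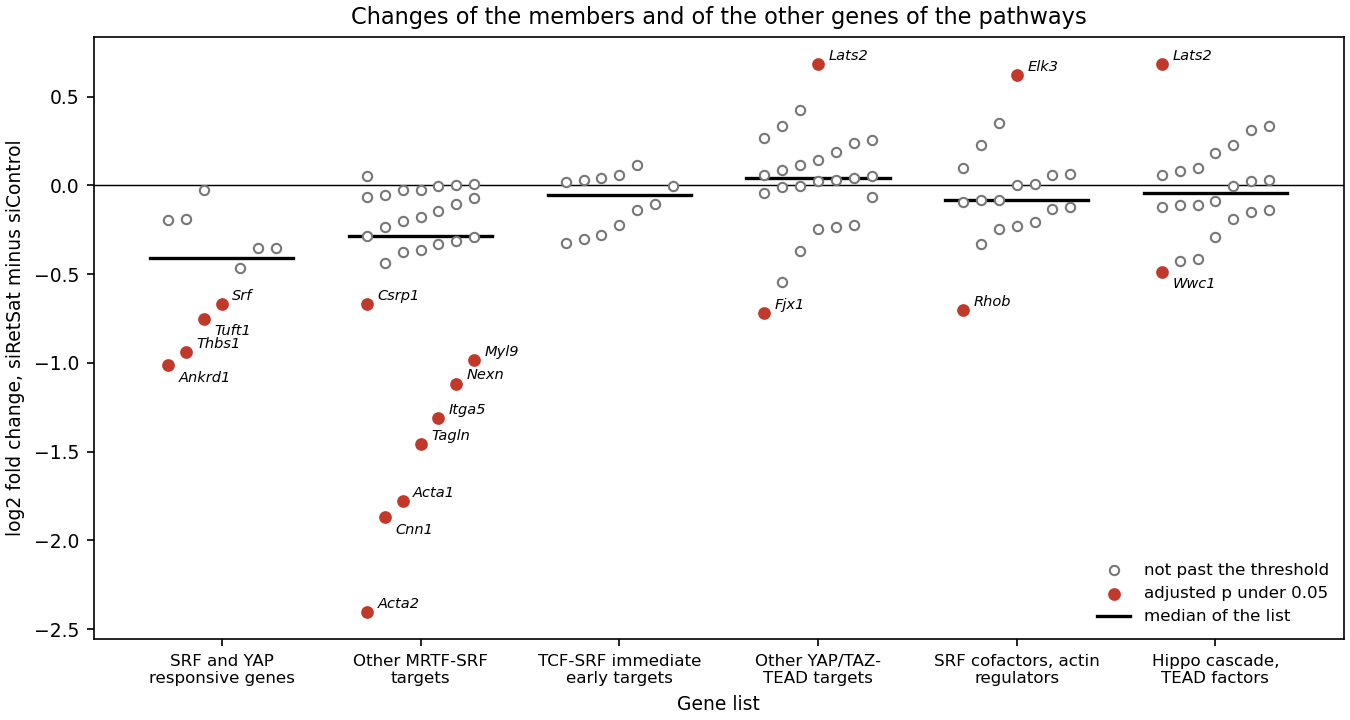
Genes are points, placed by log2 fold change on the y axis (siRetSat minus siControl, 3 arrays per group) and by gene list on the x axis. Filled points passed an adjusted p of 0.05. Bars are list medians, at -0.41 for the members, which include the 4 chosen for their fall, -0.29 for other MRTF-SRF targets and 0.04 for other YAP/TAZ-TEAD targets. The other MRTF-SRF targets include Acta2, Acta1, Cnn1, Tagln and Myl9, seen to fall before the list was written. The median of the 24 others was -0.19. Of the other YAP/TAZ-TEAD targets 6 were dim, and of the other MRTF-SRF targets none was.

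RetSat mRNA itself was at 21.8% of its siControl level in siRetSat (adjusted p = 0.000112 from limma). None of 10 hepatocyte markers was dim. The brightest, albumin (Alb), was at 13.05 ± 0.06 in siRetSat and 12.98 ± 0.08 in siControl (SD, n = 3 each). Signals reached down to Cyp2e1, at 5.71 ± 0.16 in siRetSat and 5.85 ± 0.30 in siControl (SD, n = 3 each). Of these 10, Cps1, Fgb and Tat were lower, at -0.82, -0.42 and -0.72, and none was higher, beside 1.66% of all genes lower. The list median was -0.25. For 5 of the 10 every siRetSat array lay below every siControl array, beside 10.1% of all genes. The hepatocyte sum was 18230 to 18829 in siRetSat and 18885 to 20721 in siControl. Cps1, Fgb and Tat each passed in at most 2 of the 6 fits without a single array. Of 14 macrophage markers Cd14 alone passed and was higher, at 0.59, in 2 of those 6 fits as well, beside 1.91% of all genes higher. The macrophage sum was 3358 to 3592 in siRetSat and 2497 to 2780 in siControl, most of it Cd68, and 10 of the markers were dim, Adgre1 and Csf1r included. None of 11 endothelial markers passed, with sums of 426 to 447 in siRetSat and 419 to 437 in siControl, and Egfl7 the brightest. Of 6 bile duct markers Prom1 was lower, at -1.57, and Sox9 higher, at 0.45, beside 3.56% of all genes in either direction. Prom1 passed in all 6 fits without a single array and Sox9 in 1 of them. The mean log2 value of Prom1 was 5.56 in siRetSat and 7.13 in siControl. The bile duct sum was 386 to 406 in siRetSat and 426 to 520 in siControl, with Krt19 the brightest. The part of these shifts in the values of the members was not tested.

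The genes most like a member over the 6 arrays were found by the root mean square difference of log2 values, after each gene's mean was removed, among 11960 genes that were not dim. This measure favours genes with a change of the same size. For Srf they were Aasdhppt, Zfp445, Lpin2, Stau1 and Ube4b, at differences of 0.0465 to 0.0557. The nearest member to Srf was Tuft1, at rank 47 (0.0987). For Ankrd1 they were Cnot6, Onecut2, Ptcd2, Fgg and Ggps1 (0.0522 to 0.091), with Thbs1 next at rank 6 (0.0919). For Ccn2 they were Slc29a3, Ube3c, Ralb, Serpinf1 and Zbtb16 (0.0197 to 0.0342), and the nearest member was Fhl1 at rank 77 (0.0737). The next members were Tuft1 at rank 35 and Srf at rank 113 from Ankrd1, Fhl2 at rank 244 from Srf, and Ccn1 at rank 211 from Ccn2. The farthest was Ankrd1 at rank 10746 from Ccn2, and these ranks restate in part the unequal fold changes given above.

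A CArG box was held by 10 of 265 genes with a window that were lower in siRetSat at an adjusted p under 0.05 (3.77%), by 4 of 296 that were higher (1.35%) and by 1.45% of all 15614 genes tested that had a window. Srf, which was chosen for its fall, is one of the 10. So are Acta1 and Myl9 from the list of other targets, both seen to fall before it was written. The rest, named after their values were seen, were Actc1 (cardiac actin, -1.39), Tmem63a (-0.85), Dgkh (-0.76), Slc25a23 (-0.70), Ppt2 (-0.48), Fermt2 (kindlin 2 of integrin adhesions, -0.47) and Lurap1l (-0.45). Whether probes of Actc1 and Acta1 read each other's transcripts was not tested. A TEAD core was held by 14.0% of the lower genes, 11.1% of the higher genes and 13.2% of all genes with a window. Of other MRTF-SRF targets 6 of 24 with a window held a CArG box, and of other YAP/TAZ-TEAD targets 0 of 17 did. The TEAD core was about as frequent in both lists, at 37.5% of other MRTF-SRF targets and 35.3% of other YAP/TAZ-TEAD targets. These shares are descriptions and were not tested.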

How the data were processed

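Gene expression was measured in 6 samples of primary mouse hepatocytes, 3 siRetSat and 3 siControl transfections. The deposited values, normalized log2 intensities of 35556 probe sets, were made by the authors with RMA and Partek 6.6, per the submitters' processing notes. No genome build or probe filter was given in the sources used here. Symbols came from GEO's platform annotation (21789 probe sets with 1 symbol, 1621 with several, 12146 with none), brought up to date by Entrez identifier in RefSeq's gene table (GRCm38.p6), where 21698 were found. For each of 19938 genes the brightest probe set was kept, and siRetSat was compared with siControl in a limma model without covariates (version 3.58.1, R 4.3.3, moderated by eBayes). P-values were adjusted by Benjamini-Hochberg across the whole table, and 0.05 was the threshold. The step was tested on simulated data with few genes changed. There 4.3% of 1.25-fold, 63.7% of 1.5-fold and 98.4% of 2-fold changes were recovered, and 5.67% of calls were false. A gene that did not pass may therefore still differ by a small fold. The number of arrays limits the precision.

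The members, the 5 pathway lists and the 6 marker lists were chosen with earlier results of these data known. Named genes are the members, RetSat, every listed gene past the threshold, up to 4 others of a pathway list with the smallest p, and of each marker list those past the threshold and the brightest. Others named were picked after their values were seen. Alternatives were the methods' t-test, a trend of variance with level, a block on replicate number, leaving out dim genes, quantile normalization, median centring, background subtraction, the mean of probe sets, array weights, all probe sets adjusted together, and the omission of single arrays or of both arrays of a number. Python 3.11.15, pandas 2.3.3, scipy 1.17.1 and matplotlib 3.10.9 were used for tables, exact tests and plots.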

Additional observations from a re-analysis of the deposited data

How the results depend on the processing

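The log2 fold change of every member kept its sign in all 19 alternative settings except that of Yap1, which was 0.017 without siControl 3 and between -0.058 and 0.017 over the 6 omissions of a single array. The count of members lower stayed at 4 in those omissions and was 4 to 6 in the other settings, except 3 by the methods' t-test, 0 when both arrays numbered 2 were left out and 2 when both numbered 3 were, and 4 of the members counted were chosen for their fall. These fits hold 2 arrays a group. No member was higher in any setting.

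Over all genes, 380 were higher and 330 lower. Over single omissions these were 119 to 402 and 88 to 248. They were 151 and 120 with all probe sets adjusted together, 1457 and 1448 with array weights, 188 and 154 with median centring, 100 and 96 by the methods' t-test, 437 and 385 without both arrays numbered 1, 10 and 5 when both numbered 2 were left out, and 71 and 40 when both numbered 3 were. Background subtraction gave 222 higher, and a variance trend 543 lower. The 8 other MRTF-SRF targets that were lower became 4 with background subtraction, 3 by the methods' t-test or without both arrays numbered 2 or 3, and 5 to 8 over single omissions. Their count was 7 with all probe sets and 9 with quantile normalization or dim genes left out. It rose to 11 with the replicate block or a variance trend and 12 with array weights. The other YAP/TAZ-TEAD targets (1 higher, 1 lower) became 5 higher and 4 lower with array weights, 0 and 0 with all probe sets, background subtraction, the methods' t-test or without both arrays numbered 2 or 3, 0 higher with median centring, 2 lower without both numbered 1, and 0 to 1 of each over single omissions. The 4 regulators of SRF and Hippo that passed became 1 with all probe sets or median centring, 11 with array weights, 2 with background subtraction, 0 by the methods' t-test or without both arrays numbered 2 or 3, and 0 to 4 over single omissions. The cause of these shifts was not tested.

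Arrays of the same number correlated in their deviations from the group means at 0.547, 0.0398 and 0.541 for numbers 1, 2 and 3. The sample titles give only a replicate number, and the main fit did not take the numbers as pairs. Arrays numbered 1 and 3 correlated best with their own number and those numbered 2 did not. With the replicate block 736 genes were higher and 805 lower, the regulators that passed were 7, and other YAP/TAZ-TEAD targets were 2 higher and 3 lower. Of the members, the block brought Ccn2 (adjusted p = 0.0418) and Fhl2 (adjusted p = 0.0266) past the threshold and changed no other call.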
